A study of Mus musculus with 7 samples.

Results

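The 10 genes described here encode proteins with which osteoblasts and osteocytes build and mineralize bone matrix, and they were taken as the rows of the deposited count table whose gene name matched 1 of 10 symbols exactly. Of 55401 rows in the table, 10 were members, and all 10 passed the filter on low counts, which 16429 genes passed. By role, 6 were osteoblast genes (*Alpl*, *Phospho1*, *Ibsp*, *Spp1*, *Bglap*, and *Bglap2*) and 4 were osteocyte genes (*Dmp1*, *Phex*, *Mepe*, and *Sost*). RNA-Seq had been carried out to compare knees of WT mice with those of *Trpc1*-/- mice early in osteoarthritis. All mice were males on the C57BL/6J background, had DMM (surgical destabilization of the medial meniscus, which induces osteoarthritis) of the right knee at 10 weeks of age, and were killed 2 weeks after DMM, so that both groups carried the surgery and no unoperated sample entered the comparison. The *Trpc1*-/- mice carried the germline Trpc1tm1Lbi allele, which lacks an exon of the transmembrane region, and the WT controls came from the same colony. Each sample pooled 2 to 3 mice. Group sizes follow the sample labels (4 WT and 3 *Trpc1*-/-), since the methods state the reverse, and the tissue is knee articular cartilage in the labels, to which the methods add subchondral bone.

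Bone is laid down as a collagen matrix that then mineralizes. Osteoblasts secrete the matrix and release vesicles in which phosphatases set free the phosphate that forms hydroxyapatite with calcium, and some of them become enclosed in the matrix as osteocytes. Osteocytes sense mechanical load, control phosphate handling through secreted and membrane proteins, and restrain bone formation through sclerostin, the product of *Sost*. In a knee, these genes mark the subchondral bone under the cartilage more than the cartilage itself.

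Total counts lay between 52142451 and 118254070 per sample, and the lowest was in WT replicate 1. Levels are given as CPM, counts scaled to the size of each library with TMM factors, and 3 counts, taken as the floor of detection, were worth at most 0.0632 CPM in any sample. *Trpc1* itself had 4.83, 4.55, 4.77, and 4.33 CPM in WT replicates 1 to 4 and 3.35, 3.79, and 3.04 CPM in *Trpc1*-/- replicates 1 to 3. These groups did not overlap, and transcripts of the gene were still counted in the knockout, whose allele removes an exon and not the whole gene. WT replicate 1 stood apart among the WT samples, with the lowest WT level in 9 of the 10 member genes and the highest in the tenth, *Dmp1*. Among all 16429 genes tested, it had the lowest WT level in 43.9% and the highest in 42.3%. *Trpc1*-/- replicate 2 had the highest level of its group in 10 of 10 members, against 36.4% of all genes tested. As a check of the tissue, the osteocyte gene *Dmp1* (75.5 ± 12.1 CPM in WT, SD, n = 4) and type II collagen (*Col2a1*, 2977 ± 248 CPM) were both present. Type I collagen (*Col1a1*, 8647 ± 2878 CPM) was also counted, as was the erythroid gene *Hbb-bs* (9916 ± 2689 CPM).

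The members lie on 5 chromosomes, and 4 of them sit side by side. In GRCm38, *Dmp1* (chr5:104202613-104214102), *Ibsp* (chr5:104299171-104311469), *Mepe* (chr5:104325329-104338611), and *Spp1* (chr5:104435118-104441050) follow each other on the plus strand, and they encode secreted, acidic phosphoproteins of 1 gene family. *Bglap* (chr3:88383501-88384464) and *Bglap2* (chr3:88377736-88378699) are neighbors on the minus strand and are near-identical copies of the osteocalcin gene. *Alpl* (chr4:137741733-137796384, minus strand), *Phospho1* (chr11:95824499-95832140, plus strand), *Sost* (chr11:101962458-101967015, minus strand), and *Phex* (chrX:157162075-157415312, minus strand) have no other member beside them. *Phospho1* overlaps *Zfp652* on its own strand and *Spp1* overlaps the gene model *Gm42793* on its own strand, so counts of these members could include reads of the other gene. *Phex* likewise holds the snoRNA *Gm25795* and the processed pseudogene *Gm15172* on its own strand.

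The coding sequences of *Bglap* and *Bglap2*, read from the GENCODE M21 transcripts, are shown because their similarity limits how far their counts can be told apart. Capitals mark the 4 of 288 bases that differ (98.61% identity).
Bglap: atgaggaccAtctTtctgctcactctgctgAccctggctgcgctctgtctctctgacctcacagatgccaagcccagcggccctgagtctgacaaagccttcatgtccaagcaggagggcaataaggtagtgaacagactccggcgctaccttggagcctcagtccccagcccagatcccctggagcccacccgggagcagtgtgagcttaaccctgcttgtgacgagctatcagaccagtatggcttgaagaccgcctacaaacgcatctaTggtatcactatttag
Bglap2: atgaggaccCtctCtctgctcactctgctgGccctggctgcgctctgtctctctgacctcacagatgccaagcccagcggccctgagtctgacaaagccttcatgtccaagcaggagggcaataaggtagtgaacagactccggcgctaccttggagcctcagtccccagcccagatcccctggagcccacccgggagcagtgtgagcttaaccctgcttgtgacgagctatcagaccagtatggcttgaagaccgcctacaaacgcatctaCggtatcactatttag
Of the 366 windows of 75 bases (the read length) in the *Bglap* transcript, 242 occur unchanged in that of *Bglap2*. A single read from them could have come from either gene. The reads were sequenced in pairs, and the other read of a pair could lie where the copies differ, which the windows do not take into account. The remaining copy, *Bglap3*, which was no member, differs from *Bglap* at 13 coding bases and shares 11 of those windows.

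Promoters were read from RefSeq for GRCm38.p6, where 9 of the 10 members had an entry, with *Bglap2* as the exception. The 4 shown are those of the osteocalcin gene, of 2 members with the core motif of RUNX2 (the factor that commits cells to the osteoblast lineage), and of *Sost*, and each gives the 180 bases before the start of transcription on the strand of the gene. Capitals mark a TATA box (TATAAA) in *Bglap* and the RUNX core (AACCACA) in *Spp1* and *Dmp1*.
Bglap, chr3:88384467-88384646, minus strand: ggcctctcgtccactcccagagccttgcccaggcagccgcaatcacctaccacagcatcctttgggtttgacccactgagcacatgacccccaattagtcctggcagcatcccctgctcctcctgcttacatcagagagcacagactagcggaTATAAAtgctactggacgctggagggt
Spp1, chr5:104434931-104435110, plus strand: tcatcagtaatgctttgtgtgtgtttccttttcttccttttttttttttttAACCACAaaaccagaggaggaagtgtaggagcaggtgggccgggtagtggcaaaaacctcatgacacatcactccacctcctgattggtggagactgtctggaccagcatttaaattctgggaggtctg
Dmp1, chr5:104202437-104202616, plus strand: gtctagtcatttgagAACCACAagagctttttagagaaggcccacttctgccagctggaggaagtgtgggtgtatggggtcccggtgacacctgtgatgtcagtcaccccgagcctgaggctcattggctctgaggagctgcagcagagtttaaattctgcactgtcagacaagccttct
Sost, chr11:101967016-101967195, minus strand: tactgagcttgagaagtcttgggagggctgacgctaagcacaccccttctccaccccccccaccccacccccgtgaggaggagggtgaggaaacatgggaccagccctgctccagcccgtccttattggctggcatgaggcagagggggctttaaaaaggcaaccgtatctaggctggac
The motifs were searched on both strands (reverse complements TTTATA and TGTGGTT) in the 250 bases before each start. The RUNX core occurred before 2 of 9 members (2 of their 12 windows) and in 4.396% of 32851 windows of this length. It started 129 bases upstream in *Spp1* and 165 bases upstream in *Dmp1*. The TATA box letters occurred before 5 of 9 members (*Alpl*, *Bglap*, *Ibsp*, *Mepe*, and *Spp1*, 5 of 12 windows) and in 12.368% of all windows. They began 27 bases upstream in *Bglap* and 28 in *Ibsp*, but 192 in *Alpl*, 173 in *Mepe*, and 211 in *Spp1*. A homeodomain core (TAATTA, its own reverse complement) occurred before *Mepe* and *Spp1* (2 of 12 windows) and in 4.84% of all windows. None of these letters occurred in the *Sost* window. A match describes the letters only, and members had more than 1 start in some cases, with 12 windows for the 9 genes.

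Levels of different genes were compared per kilobase of exon. In WT samples, *Spp1* had 566 ± 91.9 CPM per kilobase (SD, n = 4), *Bglap* 535 ± 181, and *Bglap2* 526 ± 194, and the ranges of these 3 genes overlapped. *Ibsp* followed with 253 ± 63.4 CPM per kilobase, and its highest WT value (310) exceeded the lowest of *Bglap2* (297). The other 6 members were lower, without overlap with *Ibsp*. Among them *Mepe* had 45.1 ± 13.7, *Alpl* 40.3 ± 6.30, and *Dmp1* 27.3 ± 4.38 CPM per kilobase, and each overlapped its neighbor in this order, whereas *Dmp1* lay above all WT values of the next gene, *Sost*. *Sost* had 17.5 ± 3.27, *Phex* 15.3 ± 1.24, and *Phospho1* 12.5 ± 1.30 CPM per kilobase. *Sost* overlapped *Phex*, whereas *Phex* (13.5 to 16.2) and *Phospho1* (10.6 to 13.5) met at the ends of their ranges. In *Trpc1*-/- samples *Sost* had 10.4 ± 0.909 CPM per kilobase (SD, n = 3), below *Phex* (12.1 ± 2.36) and *Phospho1* (11.1 ± 1.76) in the order of means, with overlapping ranges.

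Across genotypes, *Sost* stood out among the members. All *Trpc1*-/- values were below the lowest WT value, at 0.597 times the WT level in the ratio of fitted values, and DESeq2 called it, whereas edgeR's quasi-likelihood test with adjustment over all genes did not. The other 9 members overlapped between the groups, 8 of them with a lower and 1, *Spp1*, with a slightly higher fitted level in *Trpc1*-/-. By edgeR, 0 of the 10 members passed an adjusted P of 0.05, as did 0.0% of all genes tested. Adjusted P values ranged from 0.381 to 0.896. At an unadjusted P under 0.05, 2 of 10 members (*Phex* and *Sost*) were lower, against 5.49% of all genes, and 1643 genes met that limit in either direction. DESeq2 called 1 of 10 members as lower, against 0.828% of all genes, and limma-voom called none of the members. In 1 of 10 members the groups did not overlap with the lower values in *Trpc1*-/-, against 6.42% of all genes. In total 9 of 10 members had a negative logFC (log2 of *Trpc1*-/- over WT), with a median of -0.31, against 51.9% and -0.0088 over all genes tested. In samples whose label held a number in the 1300s, or with the number range as a covariate, the median was -0.19. Without *Trpc1*-/- replicate 2 the median was -0.47.

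**Figure D1:**
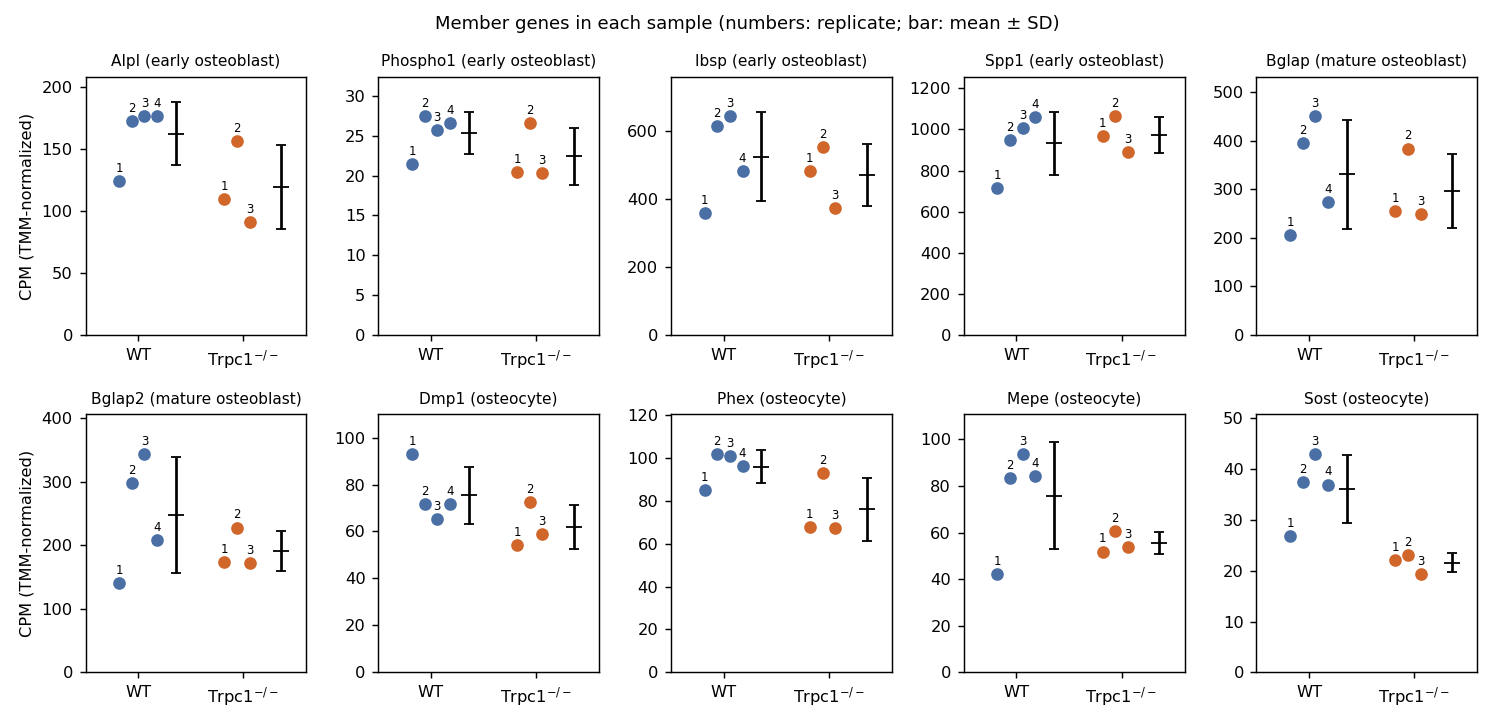
TMM-normalized CPM of each member gene (y axes from 0) in 4 WT samples (blue) and 3 *Trpc1*-/- samples (orange), with replicate numbers above the points and the mean ± SD as a black bar beside each group. Only for *Sost* do all *Trpc1*-/- points (19.4 to 23.0 CPM) lie below all WT points (26.8 to 43.0 CPM).

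The phosphatases come first in the order of mineralization. *Alpl*, tissue-nonspecific alkaline phosphatase, which removes the inhibitor pyrophosphate and yields phosphate, had 124, 173, 176, and 176 CPM in WT replicates 1 to 4 and 110, 157, and 91.3 CPM in *Trpc1*-/- replicates 1 to 3. Of the *Trpc1*-/- samples, 2 lay below all WT samples and replicate 2 lay among them. The means were 162 ± 25.4 (SD, n = 4) and 119 ± 33.8 CPM (SD, n = 3), with a logFC of -0.45 (SE 0.21) and an adjusted P of 0.51 in edgeR. Its edgeR logFC was -0.70 without *Trpc1*-/- replicate 2 and -0.29 without replicate 3, and DESeq2 called it in 2 of 7 fits with a sample left out, those without WT replicate 1 (adjusted P = 0.0225) and without *Trpc1*-/- replicate 2 (0.0177). *Phospho1*, which releases phosphate from phosphocholine inside matrix vesicles, had 21.5, 27.4, 25.8, and 26.7 CPM in WT and 20.4, 26.6, and 20.4 CPM in *Trpc1*-/- samples. Again replicate 2 of the *Trpc1*-/- group was level with the WT samples, and replicates 1 and 3 lay just under WT replicate 1. Its logFC was -0.18 (SE 0.13, edgeR's adjusted P = 0.626). Differences in bulk tissue of this kind cannot separate fewer cells of a type from less RNA per cell.

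Of the 2 acidic proteins that osteoblasts place in the early matrix, neither passed the test. *Ibsp*, bone sialoprotein, which binds collagen and promotes the first crystals, had 358, 614, 642, and 481 CPM in WT and 481, 553, and 373 CPM in *Trpc1*-/- samples. All *Trpc1*-/- values fell inside the WT range, and the logFC was -0.16 (SE 0.23, edgeR's adjusted P = 0.805), with a range of -0.30 (without WT replicate 1) to -0.018 (without *Trpc1*-/- replicate 3) when 1 sample was left out. *Spp1*, osteopontin, which slows crystal growth and is also made by osteoclasts, macrophages, and hypertrophic chondrocytes, had 715, 950, 1006, and 1058 CPM in WT and 967, 1063, and 889 CPM in *Trpc1*-/- samples. Apart from WT replicate 1, the lowest, all samples of both groups lay between 889 and 1063 CPM. The logFC of *Spp1* was 0.06 (SE 0.16, edgeR's adjusted P = 0.896), and without WT replicate 1 it was -0.05.

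The osteocalcin genes are switched on late in osteoblast maturation and encode a small protein that binds calcium after a vitamin K-dependent modification. *Bglap* had 205, 395, 450, and 273 CPM in WT and 255, 384, and 249 CPM in *Trpc1*-/- samples. *Bglap2* had 140, 298, 344, and 208 CPM in WT and 173, 228, and 172 CPM in *Trpc1*-/- samples. For both genes the WT samples spread over more than the whole *Trpc1*-/- range, with WT replicates 2 and 3 high and replicates 1 and 4 low. The logFC was -0.16 (SE 0.29, edgeR's adjusted P = 0.848) for *Bglap* and -0.38 (SE 0.29, edgeR's adjusted P = 0.651) for *Bglap2*, which DESeq2 called only without WT replicate 1 (adjusted P = 0.0275). Because reads can be shared, the 2 genes were also summed with *Bglap3*, which gave a logFC of -0.26 (SE 0.29, edgeR's adjusted P = 0.745). *Bglap* took 44.7% to 50.8% of the counts of the 3 copies and *Bglap2* 30.2% to 34.2%. The highest *Bglap* share and the lowest *Bglap2* share both came from *Trpc1*-/- replicate 2.

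The osteocyte genes had lower *Trpc1*-/- means in 4 of 4 cases. *Dmp1*, an acidic protein that osteocytes need to mature and mineralize their surroundings, had 93.1, 71.6, 65.5, and 71.8 CPM in WT and 54.2, 72.6, and 58.9 CPM in *Trpc1*-/- samples. WT replicate 1, the lowest WT sample for the other 9 members, was the highest here. The means were 75.5 ± 12.1 and 61.9 ± 9.55 CPM, and the logFC was -0.29 (SE 0.15, edgeR's adjusted P = 0.537). *Phex*, a membrane peptidase that keeps phosphate from being lost by the kidney and cuts peptides that inhibit mineralization, had 85.0, 102, 101, and 96.2 CPM in WT and 67.6, 93.2, and 67.4 CPM in *Trpc1*-/- samples. Again 2 *Trpc1*-/- samples lay below the WT range and replicate 2 lay inside it. The logFC of *Phex* was -0.34 (SE 0.14), with an unadjusted P of 0.0399 and an adjusted P of 0.482 in edgeR. It was -0.52 without *Trpc1*-/- replicate 2, and DESeq2 called *Phex* without that sample (adjusted P = 0.00105) and without WT replicate 1 (0.0455), but in none of the other 5 fits with a sample left out.

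*Mepe*, whose acidic peptide inhibits mineralization until it is cleared with the help of PHEX, had 42.0, 83.4, 93.8, and 84.4 CPM in WT and 51.9, 60.8, and 53.6 CPM in *Trpc1*-/- samples. The *Trpc1*-/- samples formed a narrow group (55.4 ± 4.73 CPM, SD, n = 3) below 3 WT samples and above WT replicate 1. The logFC was -0.45 (SE 0.25, edgeR's adjusted P = 0.549), and it was -0.66 (SE 0.082, edgeR's adjusted P = 0.0327) when WT replicate 1 was left out. With any other sample left out, the logFC of *Mepe* lay between -0.53 and -0.34, with edgeR's adjusted P from 0.558 to 0.932.

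*Sost* encodes sclerostin, a secreted antagonist of Wnt signaling that is made by mature osteocytes and falls when bone is loaded. It had 26.8, 37.5, 43.0, and 37.0 CPM in WT and 22.2, 23.0, and 19.4 CPM in *Trpc1*-/- samples. The groups did not overlap, although the lowest WT sample, replicate 1, was closer to the *Trpc1*-/- samples than to the next WT sample. The means were 36.1 ± 6.75 (SD, n = 4) and 21.6 ± 1.88 CPM (SD, n = 3). In edgeR's quasi-likelihood test the logFC was -0.75 (SE 0.16), with an unadjusted P of 0.00153 and an adjusted P of 0.381, and in DESeq2 it was -0.74 (SE 0.17) with an adjusted P of 0.0033. When each sample was left out in turn, the edgeR logFC of *Sost* stayed between -0.86 and -0.65, and DESeq2 called the gene in 4 of 7 such fits, with an adjusted P of up to 0.162 in the others (without WT replicate 2 or *Trpc1*-/- replicate 1 or 3). Without WT replicate 1, edgeR called *Sost* (adjusted P = 0.0208) along with *Mepe*, that is 2 of 10 members as lower, against 0.142% of 16242 genes tested. Each label holds a number, which lies in the 1700s for WT replicates 3 and 4 and in the 1300s for the other 5 samples. What the numbers stand for is not stated. Within the 1300s alone (2 WT and 3 *Trpc1*-/- samples) the logFC was -0.58 for *Sost* (edgeR's adjusted P = 0.373), -0.18 for *Mepe*, and 0.22 for *Spp1*.

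**Figure D2:**
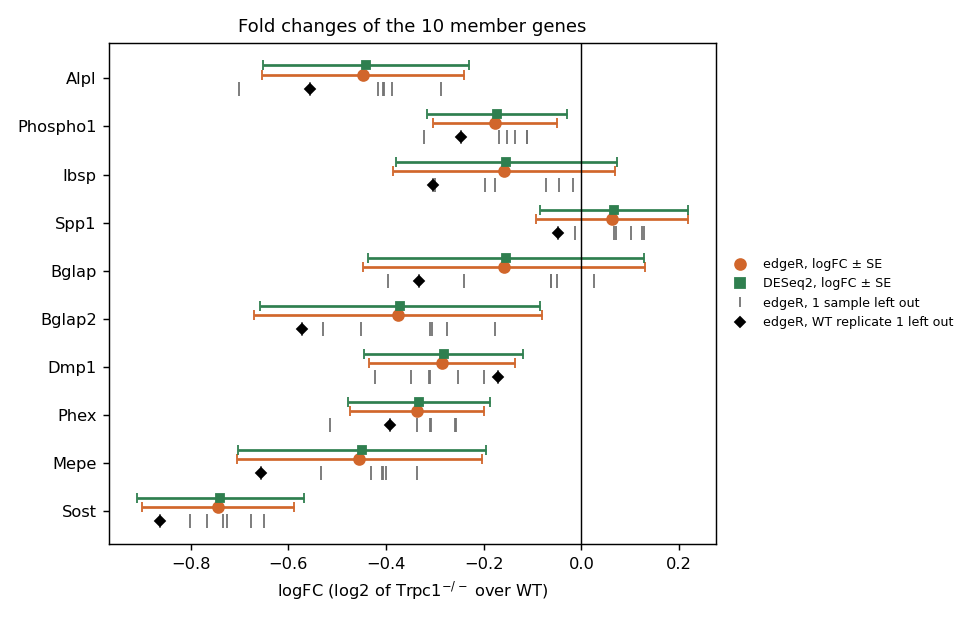
Fitted logFC (log2 of *Trpc1*-/- over WT, x axis) of each member gene with its SE in edgeR (orange circles) and DESeq2 (green squares), with gray ticks for edgeR fits that leave out 1 of the 7 samples and a black diamond for the fit without WT replicate 1. *Sost* has the lowest value in both tools (-0.75 and -0.74) and lies between -0.86 and -0.65 with 1 sample left out, whereas the fits for *Spp1* and *Bglap* fall on both sides of 0.

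The osteoblast and osteocyte genes were then set against each other within each sample, as the mean log2 CPM of the 6 osteoblast genes and of the 4 osteocyte genes. The osteoblast mean was 7.36, 8.04, 8.11, and 7.83 in WT and 7.56, 7.93, and 7.43 in *Trpc1*-/- samples, a difference of -0.19 between the group means with full overlap. The osteocyte mean was 5.77, 6.11, 6.17, and 6.09 in WT and 5.50, 5.79, and 5.50 in *Trpc1*-/- samples, a difference of -0.44, with *Trpc1*-/- replicate 2 just above WT replicate 1. The median logFC was -0.17 for the osteoblast genes and -0.40 for the osteocyte genes. Subtracted within samples, the osteoblast mean exceeded the osteocyte mean by 1.59, 1.92, 1.95, and 1.74 in WT (1.80 ± 0.17, SD, n = 4) and by 2.06, 2.14, and 1.94 in *Trpc1*-/- samples (2.05 ± 0.10, SD, n = 3). The gap was thus wider by 0.25 in the *Trpc1*-/- group, with a pooled SD of 0.15 within groups, and the groups overlapped because WT replicate 3 exceeded *Trpc1*-/- replicate 3. With *Sost* left out of the osteocyte mean the difference was 0.15, about the pooled SD.

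**Figure D3:**
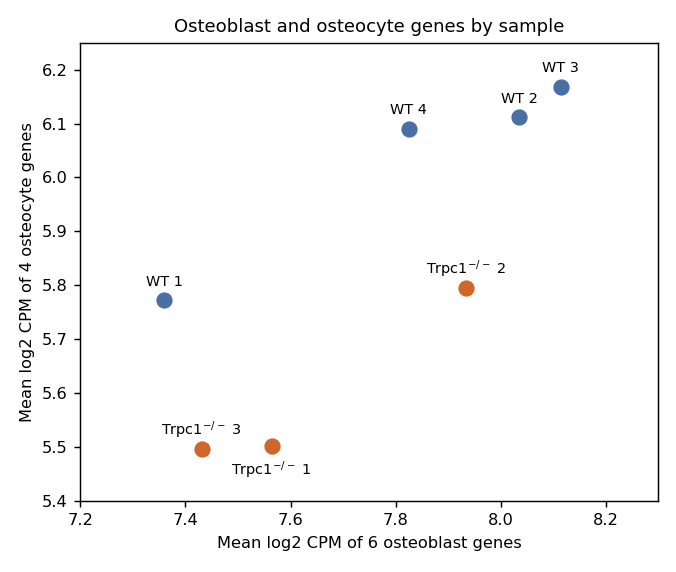
Mean log2 CPM of the 6 osteoblast member genes (x axis) against that of the 4 osteocyte member genes (y axis), with 1 point for each WT (blue) and *Trpc1*-/- sample (orange). The *Trpc1*-/- points lie lower on the y axis at a like position on the x axis, for example *Trpc1*-/- replicate 2 (7.93, 5.79) beside WT replicate 4 (7.83, 6.09).

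Each member was also expressed relative to the other 9 in the same sample, as its log2 CPM minus their mean. On this scale *Sost* was at -2.20, -2.26, -2.12, and -2.14 in WT and at -2.52, -2.84, and -2.64 in *Trpc1*-/- samples, lower by 0.49 on average and without overlap. *Spp1* was at 3.06, 2.92, 2.93, and 3.24 in WT and at 3.53, 3.31, and 3.49 in *Trpc1*-/- samples, higher by 0.40 on average and also without overlap. *Spp1* was thus higher relative to the other members, while its CPM alone did not pass the test. The other 8 members overlapped between the groups on this scale. Every gene tested was set against the members in a like way, with the mean of all 10 subtracted for genes outside the members. Of all genes tested, 0.256% were lower without overlap and 12.7% were higher without overlap. The latter share is large since the mean that was subtracted was itself lower in *Trpc1*-/- samples. The 1 of 10 members that was higher is thus close to the share of all genes. For *Sost*, WT replicate 1 lay inside the range of the other WT samples on this scale, unlike in CPM.

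**Figure D4:**
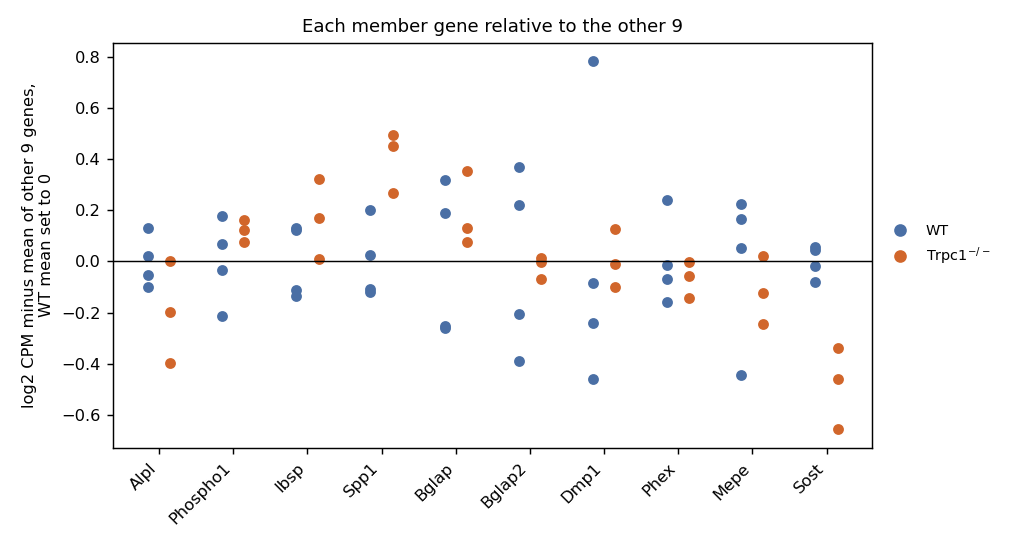
Log2 CPM of each member gene minus the mean of the other 9 member genes in the same sample (y axis), shifted so that the WT mean of each gene is 0, for WT (blue) and *Trpc1*-/- samples (orange). *Sost* lies below and *Spp1* above the WT samples in all 3 *Trpc1*-/- samples, and the widest WT spread is that of *Dmp1*, whose high point is WT replicate 1.

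Across the 7 samples, some members followed each other closely, which is given as a description because these samples include both genotypes and share library depth and tissue makeup. Log2 CPM of *Alpl* and *Phex* had a Pearson r of 0.961, that of *Bglap* and *Bglap2* 0.959, and that of *Alpl* and *Phospho1* 0.948. *Dmp1* had an r of -0.51 with *Spp1* and -0.20 with *Ibsp*, and its highest r among the members was 0.533 with *Phex*. WT replicate 1 had the highest *Dmp1* (93.1 CPM) and the lowest *Spp1* (715 CPM) and *Ibsp* (358 CPM) of all 7 samples. These values of r thus rest in part on that sample, and r without it was not computed. Outside the members, 11885 genes with at least 5 CPM on average were ranked by their r over the same 7 samples. The osteoblast mean was followed most closely by *Rom1* (r = 0.991), *Acss2* (0.983), and *Cpz* (0.982), and then by *Nt5c3b*, *Igsf8*, *Anxa4*, *Wdr6*, *Tsen34*, *Bambi*, and *Slain2* (r of 0.967 to 0.980). The osteocyte mean was followed most closely by *Foxc1* (r = 0.995), *Mfge8* (0.993), and *Rab11fip4* (0.985), and then by *Parp3*, *Gaa*, *Cpe*, *Ndor1*, *Stat5b*, *Zbtb38*, and *Emcn* (r of 0.961 to 0.981). These genes were picked for the highest r among 11885 over only 7 samples, so their r is a description too and was not tested.

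Other genes of the same pathway were mostly lower by the fitted direction as well, without a call in edgeR. Of 13 other osteoblast genes, which include the transcription factors *Runx2* and *Sp7* and type I collagen, 13 had a negative logFC (median -0.32). The only one with an unadjusted P under 0.05 was *Pth1r*, the receptor for parathyroid hormone (63.2 ± 2.30 CPM in WT and 50.3 ± 10.2 CPM in *Trpc1*-/-, logFC -0.33, SE 0.13, edgeR's adjusted P = 0.474). *Pth1r* and *Panx3* are also expressed by hypertrophic chondrocytes and were counted in the list of those cells too. *Bglap3*, which can share reads with *Bglap* and *Bglap2*, was among the 13. Of 7 other osteocyte genes, 5 were tested and 5 had a negative logFC (median -0.35), whereas *Fgf23* did not pass the filter (0 to 26 counts) and *Dspp* had 0 counts in all samples. At an unadjusted P under 0.05 were *Fam20c*, the kinase that phosphorylates the acidic matrix proteins (26.7 ± 2.19 and 20.7 ± 4.57 CPM, logFC -0.37, SE 0.14), and *Irx5* (7.89 ± 0.217 and 6.30 ± 1.11 CPM, logFC -0.33, SE 0.13), with adjusted P of 0.476 and 0.479 in edgeR.

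Regulators of phosphate, pyrophosphate, and calcium made up another list of 11 genes, of which 8 were tested, 7 with a negative and 1 with a positive logFC (median -0.24). *Vdr*, the receptor through which vitamin D acts on bone cells, had 38.5 ± 5.26 CPM in WT and 25.1 ± 3.63 CPM in *Trpc1*-/- samples. Its groups did not overlap (33.8 to 44.4 against 21.2 to 28.4 CPM), with a logFC of -0.62 (SE 0.14), an adjusted P of 0.395 in edgeR and 0.0128 in DESeq2, which called it. With each sample left out, its DESeq2 logFC stayed between -0.72 and -0.51, and it was called in 4 of 7 fits, but not without WT replicate 4 (adjusted P = 0.0615) or *Trpc1*-/- replicate 2 (0.0571) or 3 (0.271). *Smpd3*, a sphingomyelinase needed for bone mineralization, had 122 ± 4.58 and 86.3 ± 19.7 CPM (logFC -0.50, SE 0.14, edgeR's adjusted P = 0.407). *Enpp1*, which makes the inhibitor pyrophosphate, had 131 ± 10.1 and 101 ± 13.6 CPM (logFC -0.37, SE 0.11, edgeR's adjusted P = 0.41). *Ank*, which exports pyrophosphate from cells, had 90.3 ± 5.15 and 91.0 ± 5.76 CPM and a logFC of 0.01 (SE 0.082). *Alpl* acts against both by breaking pyrophosphate down, and its logFC of -0.45 likewise did not pass the test.

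Some marker lists of other cell types, the erythroid and chondrocyte lists among them, also differed between the groups, without a call in edgeR. The part of other cell types in the values of the members was not tested. Summed CPM of 19 of 20 listed erythroid genes found in the table, led by *Hbb-bs* and *Hba-a1*, was 20190 to 37230 in WT and 43000 to 58480 in *Trpc1*-/- samples. All 19 had a positive logFC (median 0.43), 15 of them at an unadjusted P under 0.05, against 4.51% of all genes tested. The 13 chondrocyte genes, led by *Col2a1* and *Col11a1*, had a negative logFC in 13 cases (median -0.48). Their sum was 7029 to 7510 CPM in WT, 7309 CPM in *Trpc1*-/- replicate 2, and 4010 and 4314 CPM in replicates 1 and 3. The *Trpc1*-/- sample with the highest level of all 10 members was thus the one with a WT-like chondrocyte sum. Its erythroid sum (43000 CPM) lay above every WT sum. It is 1 sample, and what its makeup means for the members was not tested. *Mmp9* and *Ctsk* led the osteoclast list, which had 994.6 to 1823 CPM in WT and 1146 to 1476 CPM in *Trpc1*-/- samples (11 genes, median logFC -0.07). The hypertrophic chondrocyte list, led by *Col10a1* and *Mmp13*, had 652 to 1446 and 613 to 920 CPM (6 genes, median -0.36). Its logFC ran from -0.65 (*Col10a1*) to -0.06 (*Mmp13*). The median lies between *Panx3* (-0.39) and *Pth1r* (-0.33), which the list of other osteoblast genes also holds. *Spp1* is also made by osteoclasts, macrophages, and hypertrophic chondrocytes. The part of such cells in its level, or in that of other osteoblast members such as *Alpl*, *Phospho1*, and *Ibsp*, was not tested.

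The other lists were described in the same way. The macrophage list, led by *Mrc1* and *Csf1r*, had 491 to 714 CPM in WT and 691 to 790 CPM in *Trpc1*-/- samples (8 genes, median logFC 0.28). The neutrophil list, led by *S100a9* and *S100a8*, had 5350 to 16910 and 12460 to 16400 CPM (10 genes, median 0.10), and its lowest sum came from WT replicate 1. The endothelial list, led by *Vwf* and *Pecam1*, had a median of -0.09 (6 genes, 317 to 335 and 280 to 323 CPM), and the adipocyte list, led by *Cfd* and *Fabp4*, one of 0.48 (6 genes, 194 to 305 and 293 to 372 CPM). The muscle list, led by *Myh4* and *Acta1*, ranged from 59.5 to 1285 CPM in WT, with the highest sum in WT replicate 1, and from 356 to 1009 CPM in *Trpc1*-/- samples (7 genes, median 0.61). No gene of any list was called by edgeR, which called 0 genes in all, whereas DESeq2 called 5 erythroid genes and 1 adipocyte gene as higher and the chondrocyte gene *Chad* as lower.

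**Figure D5:**
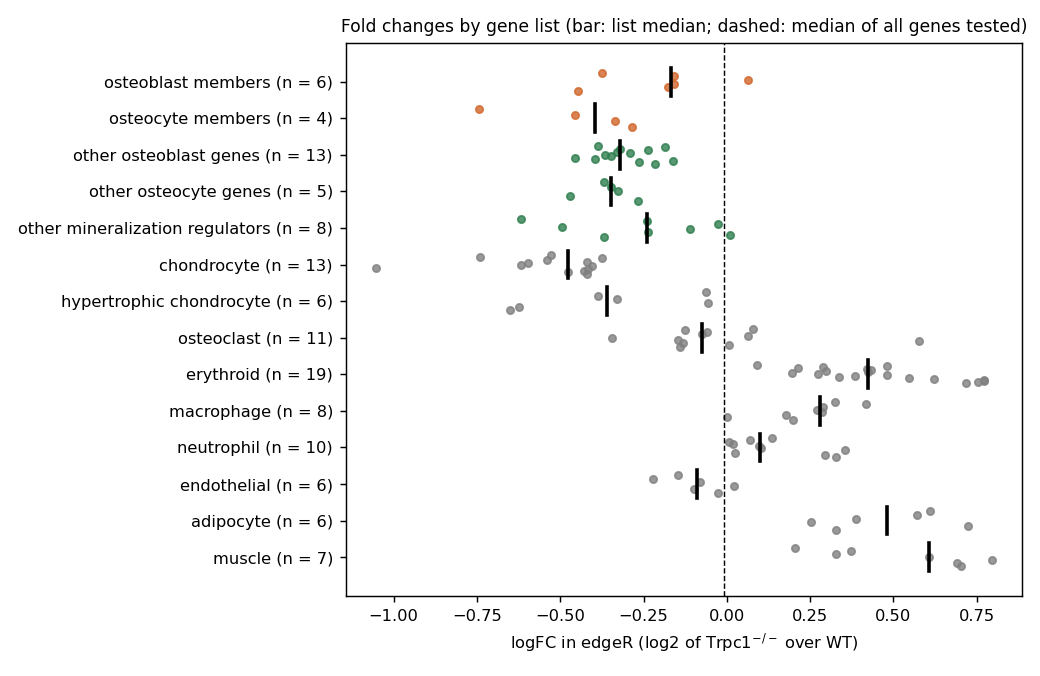
Fitted logFC in edgeR (x axis) of the tested genes of each list, with the member genes in orange, other bone genes in green, and markers of other cell types in gray. Black bars mark list medians and the dashed line the median of all genes tested (-0.0088), and the 4 osteocyte members (median -0.40) lie to its left along with the chondrocyte genes (median -0.48), while the erythroid genes (median 0.43) lie to its right.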

How the data were processed

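RNA-Seq had been performed on 7 pooled samples of mouse knee cartilage and subchondral bone (4 WT and 3 *Trpc1*-/-, by the labels), with ribosomal RNA depleted and stranded libraries. Per the submitters' processing notes and the methods, reads were demultiplexed with bcl2fastq, trimmed with Cutadapt 2.5, aligned to GRCm38 with HISAT2 2.1.0, and quantified with StringTie 2.0.3. The authors deposited estimated counts per gene, which were derived from coverage, were already whole numbers, and were not normalized. How reads shared by near-identical genes were divided was therefore fixed before this point, which bears on *Bglap* and *Bglap2*.

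Positions and exon lengths came from GENCODE M21. A gene was tested if at least 2 samples exceeded 1 CPM. The main test was edgeR's quasi-likelihood test (edgeR 4.0.16, R 4.3.3, TMM, genotype alone, Benjamini-Hochberg adjustment over all 16429 genes, threshold 0.05). The study's own test, DESeq2 1.42.0, and limma-voom (limma 3.58.1) were alternatives, as were other scalings and filters on low counts. Further alternatives were a smaller prior count, the replicate block, the range of label numbers, and leaving out each sample. Log2 CPM used a prior count of 1. Before use, the fitting code was tested on simulated data. Total counts of 52142451 to 118254070 leave counting error small for the members, and the floor of 3 counts covers counting error only. Samples pooled different mice, so P values measure the spread between such pools.

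Named genes were the members, the pathway genes with a call or an unadjusted P under 0.05, the 10 genes most correlated with each of the osteoblast and osteocyte means, the 2 most abundant genes of each marker list, and *Trpc1*. *Runx2*, *Sp7*, *Col1a1*, *Panx3*, *Bglap3*, *Chad*, *Fgf23*, *Dspp*, and *Ank* were named after their values were seen. Members and lists were chosen with earlier results of these data known. Sequences came from RefSeq (GRCm38.p6 promoters) and GENCODE.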

Additional observations from a re-analysis of the deposited data

Results flagged for a closer look

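*Alpl* in WT replicate 1 had 124.4 CPM, far below the other 3 WT samples, which lay within 173 to 176 CPM. The gap between this sample and the nearest other one took a share of 0.929 of the WT range, more than Dixon's critical value. In total 13 values were tested in the 4 WT samples in this way (the 10 member genes, both group means, and their difference), and about 5% of such tests pass by chance. WT replicate 1 was the sample farthest from the others in all 13, and the largest share apart from *Alpl* was 0.803, for the osteocyte mean.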

How the results depend on the processing

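Of 162 fitted values of the members under the settings planned, 156 kept their direction and call in edgeR or the named tool, but edgeR called 0 genes of the whole table in every edgeR setting except the fit without WT replicate 1 (52 genes), so a kept call says little. The number of members called by edgeR was 0 in the analysis reported, 1 by DESeq2 (*Sost*), and 0 to 2 when each sample was left out in turn, with 2 reached without WT replicate 1. The number at an unadjusted P under 0.05 was 2 in the analysis reported and 1 to 5 when each sample was left out. It was 1 without a filter on low counts (2058 of 35522 genes in that fit) and 1 among the label numbers of the 1300s (2156 of 16203 genes). It was 5 without WT replicate 1 (16.9% of all genes in that fit) or *Trpc1*-/- replicate 2 (9.95%), and 1 without each of the other 5 samples (4.36% to 10.3%), against 10.0% of all genes with every sample. The number called by DESeq2, for which alternatives were added after the data were seen, was 0 to 5 with each sample left out: 5 without WT replicate 1 (5.49% of all genes in that fit), 3 without *Trpc1*-/- replicate 2 (2.27%), and 0 without WT replicate 2 (0.38%) or *Trpc1*-/- replicate 1 (0.513%) or 3 (0.226%), against 1 member and 1.79% of all genes with every sample. With the replicate number as a block (WT replicate 4 left out), 1 member had an unadjusted P under 0.05 in edgeR (972 of 16303 genes in that fit). In the same setting 0 members were called by DESeq2 (54 of 16303 genes). Same-numbered samples were different mice. The correlations of their deviations were -0.348 to -0.0439 over 3 pairs, against -0.332 to 0.364 over 9 pairs with unlike numbers. So few pairs cannot show whether the numbers pair the samples. With 1 sample left out, the logFC of *Spp1* ranged from -0.047 to 0.13, below 0 without WT replicate 1 (-0.047) or *Trpc1*-/- replicate 2 (-0.012), and that of *Bglap* from -0.40 to 0.025, above 0 without WT replicate 3. The number of lower members was 8 to 10, the median logFC -0.47 to -0.19, and the osteoblast minus osteocyte difference 0.15 (*Sost* left out) to 0.30 (without *Trpc1*-/- replicate 3). The causes of these changes were not tested.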
